A study of Sus scrofa with 12 samples.

Results

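The peaks described here lie in the swine leukocyte antigen region, the pig major histocompatibility complex, taken as every peak on chromosome 7 that starts at or above 22000000 and ends at or below 26000000 (susScr11). They come from maps of N6-methyladenosine (m6A) in mRNA of longissimus dorsi, the long back muscle, of 5-day-old Large White and Ningxiang pigs. Large White is a lean commercial breed and Ningxiang an indigenous Chinese one. Neither breed was treated, and the labels give no genotype. Each breed has 3 replicates, each with an antibody-enriched library and an input library, and 1 peak list was deposited per replicate. The block held 327 of the 13487 peaks of the 6 lists, on 57 of 2166 genes. The rule that picks these peaks uses their positions and no measured value.

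The major histocompatibility complex is a gene-dense stretch that encodes the proteins with which cells show peptides to T cells. Class I molecules are carried by nearly all nucleated cells and show peptides from inside the cell, while class II molecules are carried mainly by professional antigen-presenting cells. Between them lies the class III stretch, with complement components, tumour necrosis factor, heat shock proteins and many genes of general use. In the pig the 3 classes lie on both sides of the centromere of chromosome 7. The mark itself is laid on adenosines of mRNA by a methyltransferase complex, is found often in long internal exons and near stop codons, and affects mRNA decay, splicing and translation. MeRIP-seq enriches mRNA fragments with an antibody to the mark and compares them with input fragments, so that a peak is a stretch of exon sequence enriched over input. Peak sequences are not shown, because no genome was used here.

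The label of the block was checked against its genes. Peaks lay on 5 SLA class I or class I-related genes (SLA-2, SLA-3, SLA-6, SLA-7 and MIC-2), on 3 class II genes (SLA-DRA, SLA-DMA and SLA-DOA), and on class III genes such as C2, C4A, TNXB and NOTCH4, which fits the name of the region. The limits also take in BMP5, a bone morphogenetic protein that is not a histocompatibility gene, and leave out RPS18, a ribosomal protein gene from the extended class II list, with a peak from 29642421 to 29642883. The limits cut through no cluster of peaks. The first peak inside, on GABBR1 from 22559505 to 22565578, had a fold of 4.14, and the last, on BMP5 from 25446844 to 25464469, had 2.62. The nearest peak below the block, on LOC595122, ended at 20882249 with a fold of 3.15, and the nearest above it, on PRIM2, began at 28275137 with a fold of 4.14.

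A fold is the authors' linear ratio of enriched over input signal for a peak, and log10 p is the logarithm of the authors' p-value for it, so a more negative value is a stronger call. Both are described for each list and are not used as a measure of how strongly a transcript was methylated in a breed. Sequencing depth is unknown here, and where no peak is listed m6A may still have been present below the level the authors could call. Lists held 2214 to 2533 peaks in Large White and 2034 to 2222 in Ningxiang. Nothing in the labels ties each replicate to a separate animal. The p-values below therefore cover the variation among these libraries only, and part of it may be technical. As a check of the tissue, 9 of 10 muscle fibre markers had a peak, all of these in all 6 lists. Of the markers of other cell types, 3 of 9 for immune cells, 3 of 4 for endothelium and 5 of 7 for fibroblasts and fat had a peak in any list. Only 6 of the 9 immune cell markers have a curated transcript in the RefSeq table. In all 6 lists 1, 2 and 4 markers of these types had one, so that transcripts of other cell types were in the maps too. Of all genes with a curated transcript 53.8% had a peak, and 35.8% of the 2166 genes with a peak had one in all 6 lists. The immune cell counts are no higher than these shares, and a peak is not a measure of expression. In bulk muscle, fewer cells of a type and less RNA per cell cannot be told apart.

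The gene of a peak is taken from the gene ID in the peak's own name field, because the gene column of the lists is misleading in the block. That column gives MIC-2 a span of 382821 bases, from 23599359 to 23982179, and files 57 peaks under it, of which 55 belong by their ID to PRRC2A, VARS, SLA-6, SLA-7 or NEU1. It likewise files all 7 peaks of SLA-2 and SLA-3 under LOC100513601, over a listed span of 134652 bases. The 2 sources name different genes for 62 of the 327 block peaks, or 19.0%, against 315 of 13160 peaks elsewhere, or 2.39%. A reader of the gene column alone would therefore miss PRRC2A, the gene with most peaks in the block.

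Of 111 genes in the block with a curated RefSeq transcript, 56 had a peak, or 50.5%, against 2087 of 3875 elsewhere, or 53.9%. MIC-2 is the 57th gene and has no row in the RefSeq table used. Among the 57 genes, 17 had a peak in all 6 lists, which is 29.8% where the share over all 2166 genes with a peak was 35.8%. A further 8 genes had a peak in 5 lists, 2 in 4, 4 in 3, 15 in 2 and 11 in 1 list only. The 17 recurrent genes held 206 of the peaks.

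**Figure D1:**
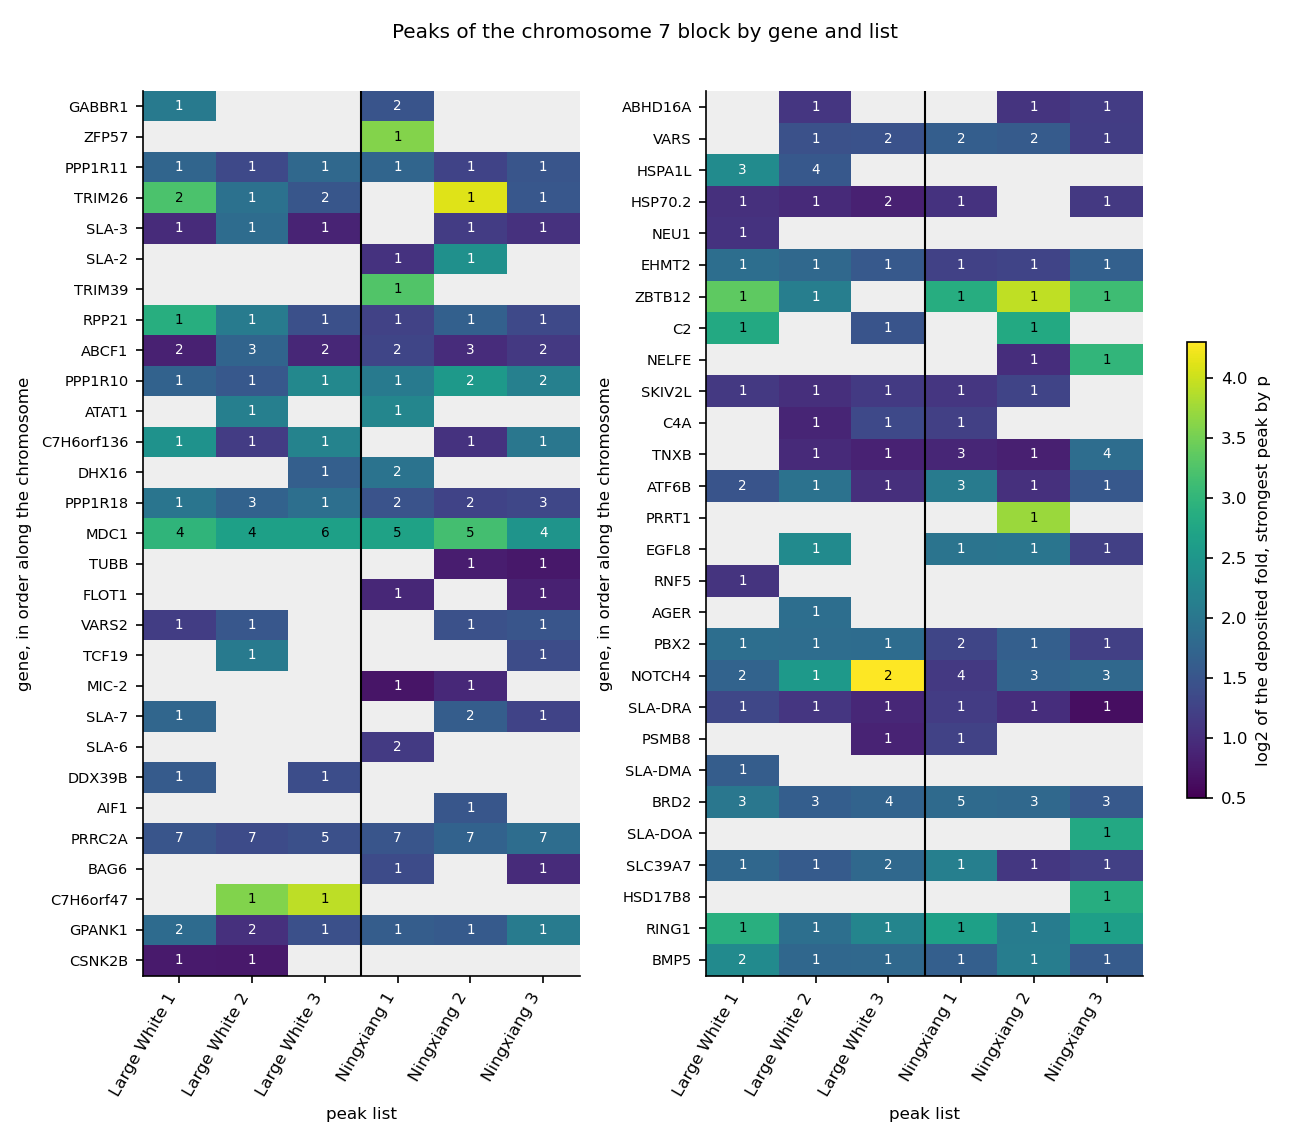
Genes of the block from the low to the high end of the region (rows, continued in the right panel) against the 6 peak lists (columns). Numbers are peaks, colour is the log2 of the deposited fold of the peak with the lowest p, and grey is no listed peak. Rows filled across all columns, such as MDC1, PRRC2A, NOTCH4, BRD2 and RING1, are among the 17 genes with a peak in every list.

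The antigen-presenting genes themselves carried 15 peaks on class I, 8 on class II and 2 on antigen processing genes over the 6 lists. With MIC-2 counted, 5 of 7 class I, 3 of 8 class II and 1 of 4 antigen processing genes in the block had a peak. Of all curated genes in the block 50.5% did, so these counts are not read as a lack of peaks on such genes. SLA-DRA, the invariant alpha chain of the DR class II molecule, was the only one of them with a peak in every list, always in exon 2 of 5 and within 24827890 to 24828069. Its folds were 2.48, 2.15 and 1.9 in Large White lists 1, 2 and 3, against 2.27, 2.0 and 1.56 in Ningxiang lists 1, 2 and 3. The ranges of the breeds overlap, and in all 6 lists the fold was below the median of the peaks outside the block, which was 2.56, 2.57 and 2.47 in Large White lists and 2.42, 2.54 and 2.61 in Ningxiang lists. Its calls were firm, with log10 p from -41.8 to -21.8 in Large White and from -31.9 to -15.8 in Ningxiang.

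Class I peaks differed in where they fell. SLA-3, a classical class I heavy chain (gene ID 100037288), had a 3′ untranslated region peak in 3 of 3 Large White lists and 2 of 3 Ningxiang lists, the longest from 22941707 to 22941945. Its folds were 1.95, 3.59 and 1.84 in Large White lists 1, 2 and 3, against 2.26 and 2.05 in Ningxiang lists 2 and 3. SLA-2, another classical class I heavy chain, had no peak in Large White and 1 each in Ningxiang lists 1 and 2, with folds of 2.07 and 5.29 and log10 p of -28.2 and -77.9. Those SLA-2 peaks did not overlap, since they ended and began at 22956551 and 22956610. Classical class I genes resemble one another closely in sequence, which makes the gene of each such peak uncertain.

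The non-classical and related class I genes were called only weakly. SLA-7 had a fold of 3.36 in Large White list 1, against 3.09 and 2.4 for the strongest peaks of Ningxiang lists 2 and 3, with no log10 p below -4.71. SLA-6 had 2 peaks in Ningxiang list 1 alone, with folds of 2.22 and 1.89 and log10 p of -2.79 and -2.62. MIC-2, a class I-related gene, had 1 peak each in Ningxiang lists 1 and 2 in its exon 3 of 7, with folds of 1.64 and 1.92. Over the whole class I list there were 4 peaks in Large White and 11 in Ningxiang, by list 2, 1 and 1 against 4, 5 and 2, so the breeds met at 2 peaks.

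The other class II and antigen processing genes had isolated peaks or none. SLA-DMA, a chain of the DM molecule that helps load peptide onto class II, had 1 peak in Large White list 1 with a fold of 3.07 and a log10 p of -2.34. SLA-DOA, a chain of the DO molecule that restrains DM, had 1 in Ningxiang list 3 with a fold of 6.95 and a log10 p of -3.1. PSMB8, a subunit of the immunoproteasome, had a fold of 1.84 in Large White list 3, against 2.37 in Ningxiang list 1. No peak was listed for SLA-DRB1, SLA-DQA1, SLA-DQB1, SLA-DOB, SLA-DMB, TAP1, TAP2, PSMB9, SLA-5 or SLA-8, all of which have a curated transcript in the block.

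The genes with most peaks were not those of antigen presentation. PRRC2A, MDC1, BRD2 and NOTCH4 together held 104 of the 327 peaks, or 31.8%. PRRC2A encodes a large proline-rich protein that is reported to bind m6A in RNA. It had 7, 7 and 5 peaks in Large White lists 1, 2 and 3, and 7 in each Ningxiang list. Its peaks reached from base 30 to base 8518 of a 13649-base gene, so that none lay in the 3′ part, and 9 of its exonic regions were covered in all 6 lists. Its strongest peaks had log10 p of -56.7, -63.0 and -60.5 in Large White lists 1, 2 and 3, against -78.0, -65.9 and -114.0 in Ningxiang lists 1, 2 and 3. The folds of these peaks were 2.82, 2.57 and 2.68 in Large White lists, against 2.84, 3.24 and 3.61 in Ningxiang lists. On both measures every Ningxiang list stood beyond every Large White list, which is described and not tested. The strongest peak was the one at the 5′ end in Large White list 1 and lay further into the gene in the other lists. The folds of the 5′ end peak overlap, at 2.82, 2.37 and 2.55 in Large White lists against 2.66, 2.85 and 2.6 in Ningxiang lists. Every list also had a peak that began in exon 9, 10 or 11 of 32, though of differing length. Its folds were 2.44, 2.57 and 2.68 in Large White lists against 2.84, 3.24 and 3.61 in Ningxiang lists, without overlap. Its log10 p did not overlap either, with -54.9 in Large White list 1 and the values above in the other lists.

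MDC1, a mediator of the DNA damage response, had long peaks with high folds. It had 4, 4 and 6 peaks in Large White lists and 5, 5 and 4 in Ningxiang lists. The strongest peak had a fold of 7.93, 6.35 and 6.32 in Large White lists 1, 2 and 3, and of 6.42, 8.94 and 5.53 in Ningxiang lists 1, 2 and 3, so the breeds overlap. It fell in exon 9 of 14 counted from the 5′ end, for instance from 23234173 to 23235877 in Large White list 1, and covered 1705, 1705 and 1944 exonic bases in Large White lists against 1765, 1227 and 1705 in Ningxiang lists. The median peak outside the block covered 209 to 211 exonic bases, depending on the list.

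BRD2, a bromodomain reader of acetylated histones, had peaks at 3 places in every list: its 5′ untranslated region, its middle exons and its 3′ end. The strongest peak had folds of 4.03, 3.12 and 3.26 in Large White lists, against 3.53, 3.46 and 2.95 in Ningxiang lists. In list order its log10 p was -107.0, -56.1 and -65.7 in Large White and -76.3, -89.2 and -61.3 in Ningxiang. This peak lay at the 3′ end in 4 lists, and in the middle exons in Large White list 3 and Ningxiang list 3. Neither measure separates the breeds.

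NOTCH4, a Notch receptor of blood vessel endothelium, had a peak at the 3′ end of its last exon in every list. The strongest peak had folds of 3.26, 5.83 and 19.5 in Large White lists 1, 2 and 3, against 2.18, 3.28 and 3.46 in Ningxiang lists. The 19.5 of Large White list 3, from 24231293 to 24231803, was the highest fold in the block and had a log10 p of -52.5. NOTCH4 also had 2, 1 and 2 peaks in Large White lists against 4, 3 and 3 in Ningxiang lists, and no other block gene had more peaks in every Ningxiang list than in any Large White list. That is 1 of 57 genes, or 1.75%, and over all genes with a peak the share was 1.34%, so the block is near the background. The opposite order, met by 2.54% of all genes, was met by 0 of 57.

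**Figure D2:**
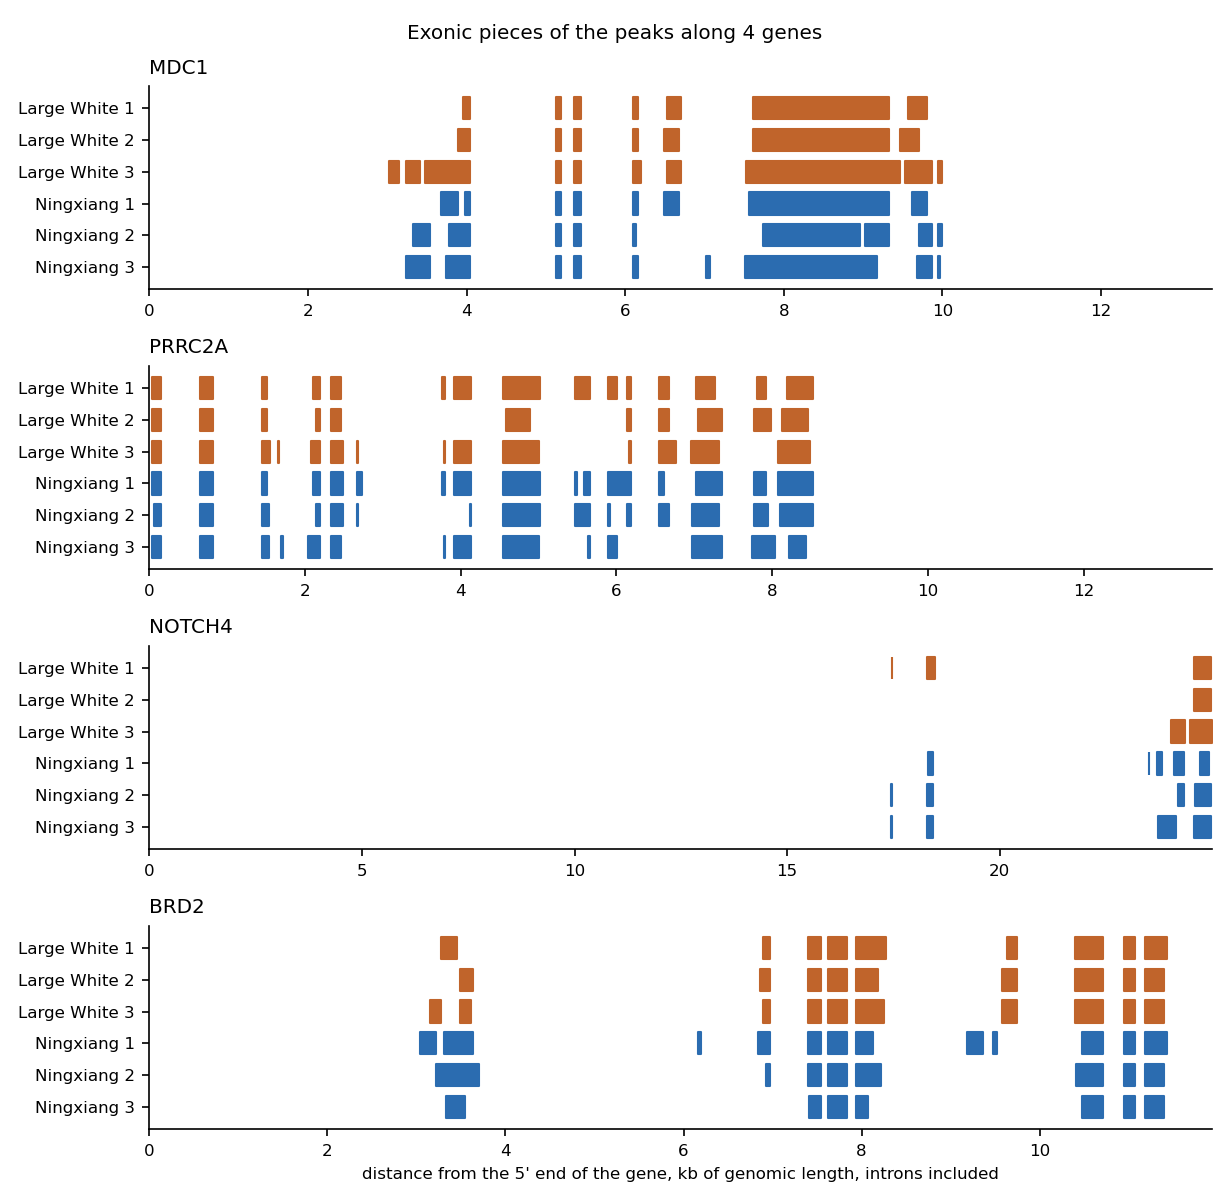
Exonic pieces of all peaks on MDC1, PRRC2A, NOTCH4 and BRD2 against the distance from the 5′ end of the gene in kb, introns included; each row is a list, Large White in orange above Ningxiang in blue. The long exon of MDC1, the 5′ part of PRRC2A and the 3′ end of NOTCH4 are covered in all 6 lists.

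Among the other recurrent genes, RING1, a subunit of Polycomb repressive complex 1, had 1 peak at its 3′ end in every list, with folds of 7.48, 3.72 and 4.67 in Large White lists and 6.31, 4.29 and 6.26 in Ningxiang lists. EHMT2, a histone H3 lysine 9 methyltransferase, had 1 peak per list, in exon 29 of 29 in 5 lists and in exon 5 in Large White list 1. Its folds ran from 2.94 to 3.65 in Large White and from 2.36 to 3.17 in Ningxiang. PBX2, a homeodomain transcription factor, had its strongest peak in the last exon in 5 lists and in exon 3 of 10 in Ningxiang list 1, with folds from 3.6 to 3.67 in Large White and from 2.32 to 3.14 in Ningxiang. ATF6B, a membrane-bound transcription factor of the unfolded protein response, had 2.8, 3.82 and 2.01 against 4.23, 2.03 and 2.92 in exon 18 of 18. For EHMT2 and ATF6B the folds of the breeds overlap, and for PBX2 every Large White fold was higher than every Ningxiang fold.

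PPP1R11, an inhibitory subunit of protein phosphatase 1, had 1 peak over its last exons that began at 22635303 or 22635332 and ended at 22635934 in all 6 lists, with folds of 3.33, 2.54 and 3.46 in Large White and 3.34, 2.41 and 2.84 in Ningxiang. PPP1R10, which targets that phosphatase to the nucleus, had its strongest peak over 5 to 9 exons, with folds of 3.24, 2.93 and 4.84 against 4.16, 5.89 and 4.45. PPP1R18, which directs it to the actin cytoskeleton, had 3.95, 3.23 and 3.7 in Large White against 2.77, 2.4 and 2.49 in Ningxiang. Its Large White folds were all above the Ningxiang ones, but these peaks lay at different places. The strongest peak was in exon 2 of 3 in Ningxiang list 3, and at differing places of exon 1 in the other lists. Another exon 1 peak of Large White list 2, from 23219606 to 23219931, had a fold of 2.49, below the 2.77 of Ningxiang list 1. PBX2 and PPP1R18 are thus 2 of 17 recurrent genes with the higher fold in every Large White list, where 8.0% of the 775 genes with a peak in all lists had it. PRRC2A is 1 of 17 with the higher fold in every Ningxiang list, against 6.32% of the 775. Counts this small are not a result about the block.

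The other recurrent genes had diverse roles. SLC39A7, a zinc transporter of the endoplasmic reticulum, had a peak in exon 1 of 7 in every list, with folds of 3.4, 3.02 and 3.45 against 4.43, 2.17 and 2.33. RPP21, a subunit of ribonuclease P, had 7.36, 4.23 and 2.69 against 2.38, 3.17 and 2.54. BMP5 had 5.0, 3.4 and 3.45 in Large White and 3.14, 4.31 and 3.02 in Ningxiang, in exon 1 of 7. ABCF1, a translation factor of the ATP-binding cassette family, had folds of 1.8, 3.29 and 1.89 against 2.46, 1.98 and 2.19 for its strongest peaks, which lay in different exons from list to list. GPANK1, a G-patch and ankyrin repeat protein, had 3.57, 2.03 and 2.69 against 3.06, 2.99 and 4.24. The folds of the breeds overlap for each of these 5 genes.

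Below the gene level, the exonic pieces of all peaks merge into 219 regions in the block, where an overlap of at least 1 base joins 2 pieces. In all 6 lists 41 of them were covered, or 18.7%, against 15.1% of the 9336 regions of all peaks. They lay in 15 genes. ABCF1 and EHMT2 were the recurrent genes without such a region. A further 92 regions were covered in 1 list only.

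No gene of the block had a peak in 3 of 3 Large White lists and 0 of 3 Ningxiang lists, a pattern met by 1.39% of all genes with a peak. None had the reverse, met by 0.739%. At shares this low, 0 of 57 is not a result about the block. The nearest patterns were 2 of 3 against 0 of 3. DDX39B, an RNA helicase, CSNK2B, the regulatory subunit of casein kinase, C7H6orf47 and HSPA1L had them in Large White, which is 7.02% of the 57 where 4.02% of all genes with a peak did. SLA-2, TUBB, a beta tubulin, FLOT1, a membrane scaffold, MIC-2, BAG6, a chaperone of membrane proteins, and NELFE, a subunit that pauses RNA polymerase, had them in Ningxiang, which is 10.5% where 2.54% of all genes did. EGFL8, with a peak in 1 Large White list and 3 Ningxiang lists, was the only gene at 3 against 1 in either direction, a pattern met by 2.03% of all genes, and its opposite by 2.91%. At the level of exonic regions 2 of 219 were Large White only, or 0.913%, where 1.78% of all regions were. They were 169 bases of BRD2 from 25160233 to 25160401 and 29 bases of RING1 from 25254790 to 25254818, both at the 5′ side of a peak present in all lists. Only 1 region was Ningxiang only, or 0.457% where the share over all regions was 0.686%, and it covered 23898906 to 23899235 in exon 1 of 31 of VARS, a valyl-tRNA synthetase.

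Every Ningxiang list held more block peaks than any Large White list, although the design cannot place this beyond the spread between lists. There were 52, 54 and 48 block peaks in Large White lists 1, 2 and 3, against 63, 55 and 55 in Ningxiang lists. The means were 51.3 ± 3.06 and 57.7 ± 4.62 (SD, n = 3), a difference of -6.33 for Large White minus Ningxiang (exact permutation test, two-sided p = 0.1, adjusted p = 0.15 over 3 comparisons). As a share of the list the block took 2.18% ± 0.272 in Large White and 2.73% ± 0.328 in Ningxiang (SD, n = 3; exact permutation p = 0.1, adjusted p = 0.15). The groups do not overlap on either measure, but 0.1 is the smallest p that 3 lists against 3 can give, so neither comparison can pass 0.05. Ningxiang list 1, with 63 peaks, carried much of the difference, which was -3.67 peaks without it. Genes per list were 33, 35 and 30 against 35, 35 and 35 (exact permutation p = 0.4, adjusted p = 0.4). With 2034 peaks from every list, the lowest number in any, the difference was -11.3 peaks and -6 genes in place of -6.33 and -2.33 (exact permutation p = 0.1 for each). With only the stronger 50% of each list by p it was -3.33 peaks (exact permutation p = 0.4), and the breeds no longer separated. The rest of chromosome 7 took 6.11% to 7.54% of a Large White list and 6.29% to 7.01% of a Ningxiang list, with overlap. TNXB, a matrix glycoprotein, with 0, 1 and 1 peaks in Large White and 3, 1 and 4 in Ningxiang, and NOTCH4 with 5 and 10 peaks over the breeds are 2 genes on which Ningxiang had more.

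**Figure D3:**
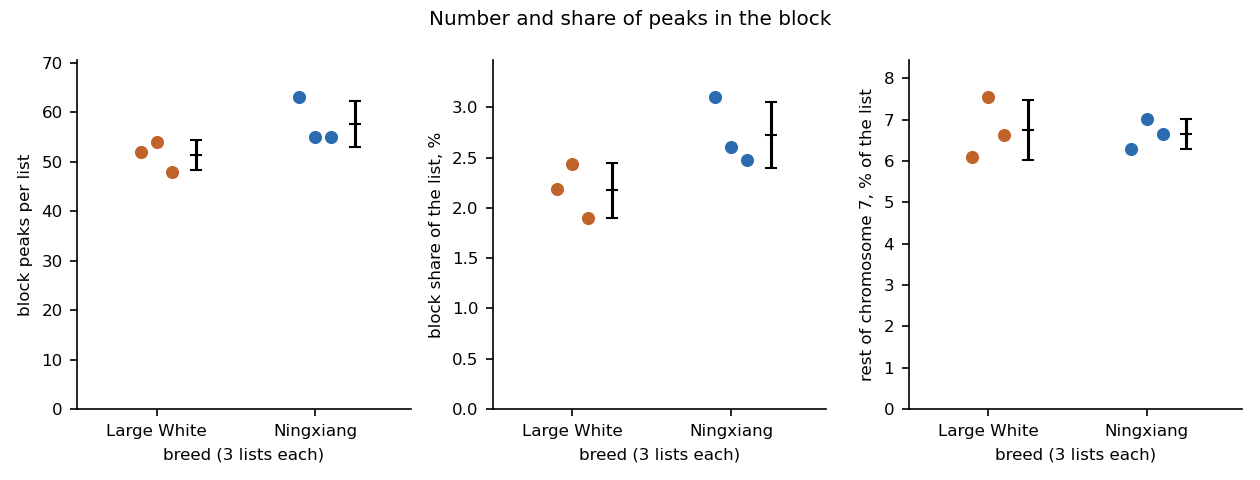
Peaks in the block per list, their share of the list in percent, and the share of the rest of chromosome 7 in percent, for the 3 Large White lists (orange) and the 3 Ningxiang lists (blue). Points are lists and bars the mean and SD: the block counts separate at 54 and 55, while the shares of the rest of the chromosome overlap.

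The heat shock protein genes of the class III stretch had 4, 5 and 2 peaks in Large White lists, against 1, 0 and 1 in Ningxiang lists. HSPA1L, a constitutive member of the 70-kilodalton family, had 3 peaks in Large White list 1 and 4 in list 2, and none in the other lists, with no log10 p below -12.4. HSP70.2 (gene ID 396648), a stress-inducible single-exon member, had a peak in 3 of 3 Large White lists and in Ningxiang lists 1 and 3. Its folds were 2.04, 1.93 and 1.81 in Large White lists 1, 2 and 3 and 2.09 and 2.2 in Ningxiang lists 1 and 3. Its log10 p was -3070, -3350 and -559 in Large White against -35.4 and -44.4 in Ningxiang. By p it ranked 9th, 7th and 29th of its Large White lists and only 270th and 284th of its Ningxiang lists. Some members of this family are near-identical copies, so the gene of these peaks, those of HSP70.2 above all, is uncertain. Read counts, on which a p-value depends along with the fold, were not analysed here.

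The log10 p of 4 heat shock genes outside the block is set beside these values. They were picked after the HSP70.2 values were seen, other heat shock genes were not tallied, and no test was made. HSPH1, a nucleotide exchange factor for the 70-kilodalton family, had a log10 p of -523, -931 and -192 in Large White lists and -14.5, -18.7 and -8.98 in Ningxiang lists. DNAJB1, a cochaperone, had -1140, -2070 and -35.7 in Large White lists against -26.0, -18.5 and -12.4 in Ningxiang lists, so that Large White list 3 lay close to Ningxiang list 1. HSPA6, another inducible family member, had -693, -1290 and -75.7 in Large White lists and no peak in Ningxiang lists. HSP90AA1, the inducible form of a further chaperone, which the lists place on an unplaced scaffold, had -595, -736 and -469 in Large White lists and -72.0 in Ningxiang list 2 alone. Large White lists 1 and 2 had the firmest calls for all of these genes and for HSP70.2. Their part in the block's values was not tested. Without HSPA1L and HSP70.2, left out after their values were seen, the breeds differed by -9.33 block peaks per list in place of -6.33. These 2 genes held 11 Large White and 2 Ningxiang peaks, so the shift follows from their counts alone.

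**Figure D4:**
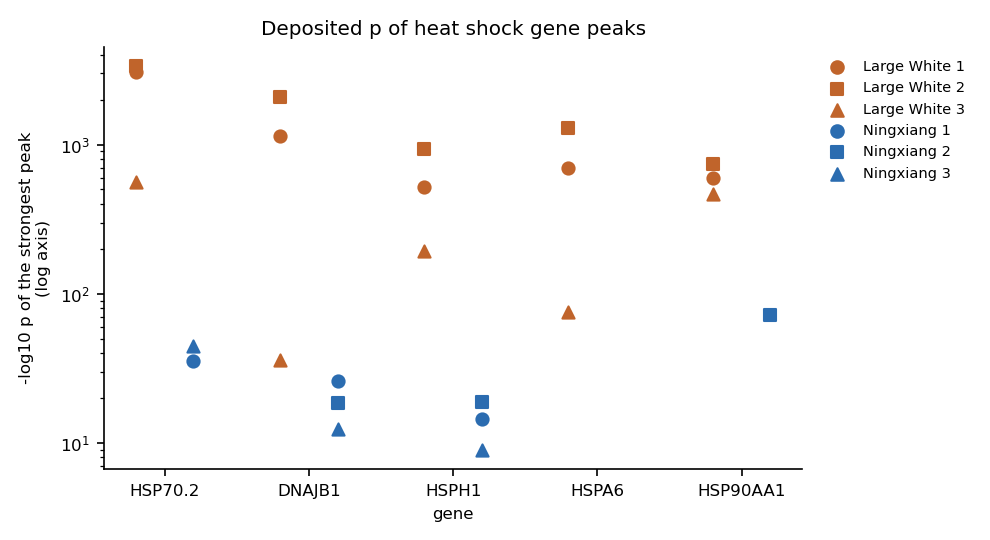
Size of the deposited log10 p of the strongest peak (log axis) on HSP70.2 of the block and on 4 heat shock genes elsewhere, with Large White lists in orange at the left of each gene and Ningxiang lists in blue at the right; a missing symbol is a list without a peak. HSP70.2 has log10 p of -3070, -3350 and -559 in Large White and of -35.4 and -44.4 in Ningxiang.

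Complement and tumour necrosis factor genes had little. C2, a complement protease precursor, had a 3′ end peak in Large White lists 1 and 3 and Ningxiang list 2, with folds of 7.01 and 2.79 against 7.04. C4A, a complement component, had folds of 1.86 and 2.53 in Large White lists 2 and 3 against 2.33 in Ningxiang list 1, in exons 30, 14 and 28 of 41. TNXB had its strongest peaks at folds of 1.93 and 1.82 in Large White lists 2 and 3, against 1.88, 1.78 and 3.63 in Ningxiang lists, with the lowest log10 p at -39.8 in Large White and -27.6 in Ningxiang. DDX39B had folds of 3.01 and 2.63 in Large White lists 1 and 3. AIF1, a calcium-binding protein of macrophages, had 1 peak in Ningxiang list 2 with a fold of 2.87 and a log10 p of -5.03. TNF, LTA, LTB and CFB had no listed peak.

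The members not yet named were seen in part of the lists. TRIM26, C7H6orf136 and SKIV2L, an RNA helicase of the exosome pathway, had a peak in 3 Large White and 2 Ningxiang lists, while VARS and ZBTB12 had one in 2 and 3. VARS2, the mitochondrial valyl-tRNA synthetase, had one in 2 and 2, and ABHD16A, a lipid hydrolase, in 1 and 2. GABBR1, ATAT1, DHX16 and TCF19 had a peak in 1 list of each breed. NEU1, RNF5 and AGER had one in 1 Large White list alone, and ZFP57, TRIM39, PRRT1 and HSD17B8 in 1 Ningxiang list alone.

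Very high folds in the block mostly belonged to weak calls. A fold of at least 10 was listed for 9 of 327 block peaks, or 2.75%, against 2.67% of the peaks elsewhere. TRIM26, a ubiquitin ligase of the tripartite motif family, reached 17.4 in Ningxiang list 2 and 9.35 in Large White list 1 at the 3′ end of its gene, with log10 p of -6.39 and -6.19. ZBTB12, a zinc-finger protein, had 10.3 and 4.36 in Large White lists 1 and 2 against 7.27, 15.3 and 8.68 in Ningxiang lists. C7H6orf47 had 11.9 and 15.2 in Large White lists 2 and 3, PRRT1 13.3 in Ningxiang list 2 and ZFP57 12.1 in Ningxiang list 1. VARS had 14.5 in Large White list 3, with a log10 p of -7.7. Overlapping VARS peaks had folds of only 2.73 in Large White list 2 and 2.31 and 2.22 in Ningxiang lists 1 and 2. NOTCH4 in Large White list 3 was the only one of the 9 with a log10 p below -12.

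The rank of block peaks within their own list was set against all other peaks of that list. In Large White lists 1, 2 and 3 the median fold percentile of block peaks was 12.9, 12.3 and 9.24 points above that of the other peaks, against 1.89, -5.2 and -2.66 points in Ningxiang lists. Over the 6 lists the mean was 4.74 ± 7.81 points (SD), above 0 in 4 of 6 lists (exact sign-flip permutation test, two-sided p = 0.219). With only the strongest peak of each gene it was above 0 in 6 of 6 lists, at 18.2, 14.9 and 7.9 points in Large White and 11.2, 11.5 and 3.35 in Ningxiang, with a mean of 11.2 (exact sign-flip permutation p = 0.0312, the smallest that 6 lists allow). The lists share the same genes, so this speaks of these regions in these samples. The difference between breeds in the first measure, 13.5 points, had an exact permutation p of 0.1 with n = 3, the smallest possible. The lists also differ in length, whose part in this difference was not tested, so it is not read as a change.

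**Figure D5:**
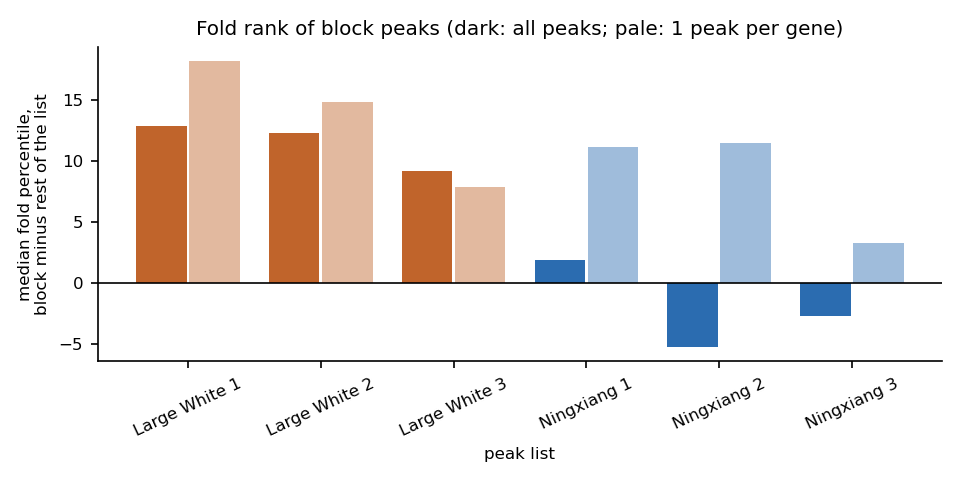
Median fold percentile of block peaks minus that of all other peaks of the same list, in percentile points, for each list (Large White orange, Ningxiang blue). Dark bars use all peaks, from -5.2 to 12.9, and pale bars the strongest peak of each gene, all above 0.

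Block peaks were centred less often in the final 10% of the genomic length of their gene in each of the 6 lists. Of block peaks, 11.5%, 16.7% and 20.8% in Large White lists and 20.6%, 23.6% and 16.4% in Ningxiang lists were centred there. Of the other peaks, 34.8% to 36.6% were, depending on the list. PRRC2A and MDC1, with most of their peaks in the body of the gene, take part in this: without them the block shares were 14.6%, 20.9% and 27.0% in Large White and 25.5%, 30.2% and 20.5% in Ningxiang, still below the rest of each list. The measure was noticed in the data and is given without a test. It includes introns and is not a count of peaks at 3′ ends. A 3′ end peak that spans introns, such as that of BRD2 in Large White lists, can be centred earlier. In exonic length block peaks were close to the others, with a median of 208.5 to 269.5 bases in Large White lists and 210 to 240 in Ningxiang lists, and from 47.3% to 55.6% of them crossed a splice junction, against 54.0% to 59.4% elsewhere.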

How the data were processed

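The 12 samples are an immunoprecipitated and an input library for each of 3 replicates of 2 breeds. Per the labels' protocols, mRNA was isolated on beads, fragmented and enriched with an m6A antibody. The authors deposited 1 annotated peak list per replicate, assigned here to the immunoprecipitated sample whose description names it. Tools named in the submitters' processing notes include HOMER, ChIPseeker 1.30.2 and FastQC 0.11.9, with susScr11 as the build. Which aligner and which peak caller were used is not given in the sources used here. Per the file headers, each peak has a fold (a linear ratio), a p-value, and 2 scores that are the log10 of the p-value and of its adjusted form. Depth is unknown from the lists. Starts count from 0, so 1 was added to each printed start.

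Computed here, with Python 3.11.15, pandas 2.3.3 and NumPy 2.4.6: peaks were selected by position; genes came from the ID in the name field, matched to RefSeq symbols on Sscrofa11.1 for 56 of 57 block genes (2159 of 2166 in all). The plan took the gene column; the change was made after its fault in the block was seen. Exon numbers of minus-strand genes were turned round, and untranslated-region classes of minus-strand peaks were not used. Position along a gene used the files' gene span, or that of RefSeq where the gene column names another gene. Peaks, genes and share per list were compared by exact two-sided permutation tests with Benjamini-Hochberg adjustment over the 3. The block was set against the rest of each list by an exact sign-flip test over 6 lists. Genes with a peak in all 6 lists, breed-only genes (none occurred) and members of the fixed lists with any peak were named with values, and the rest by their number of lists; genes outside this rule are marked as chosen after their values were seen or are given for a stated count. The members and gene lists were chosen with earlier results of these data known. The counting was tested on simulated lists. Alternatives were the stronger 50% of each list by p, 2034 peaks from every list, peaks that overlap the block, other gene assignments, 50% coverage of a region, and each list left out.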

Additional observations from a re-analysis of the deposited data

How the results depend on the processing

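Block peaks, genes and share per list kept a negative Large White minus Ningxiang difference under every alternative run. Leaving out 1 list gave -7.67 to -3.67 peaks, -3.5 to -1 genes and -0.683 to -0.365 percentage points. With the replicate block, that is over the differences of same-numbered lists, the peaks differed by -6.33, genes by -2.33 and the share by -0.551 points (exact sign-flip p = 0.25, 0.5 and 0.25; 0.25 is the smallest possible). No sign that the numbers pair the lists was seen: deviations from the breed means over 775 genes correlated at -0.028, -0.026 and 0.043. This measure cannot exclude a pairing. With 2034 peaks from every list the difference was -11.3 peaks and -6 genes (exact permutation p = 0.1 for each). Without HSPA1L and HSP70.2, an alternative added after seeing the data, it was -9.33 peaks. By the gene column, also added later, genes differed by -0.667.

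Counts by rule moved more. Genes in all 6 lists were 9 with the stronger 50% of each list and 17 to 20 with 1 list left out. Genes Large White only were 0 to 2 and genes Ningxiang only 0 to 2 with 1 list left out, and 1 gene, ZBTB12, and 2 exonic regions were Ningxiang only with equal list length. Exonic regions in all 6 lists were 27 with the stronger 50%, 26 with 50% coverage, and 43 to 46 with 1 list left out. Large White only regions were 4 with 50% coverage and 3 to 7 with 1 list left out, and Ningxiang only regions 2 and 2 to 5. The fold percentile difference was 4.74 in the main run (exact sign-flip permutation p = 0.219). It was 9.66 with the stronger 50% and 11.2 with 1 peak per gene (exact sign-flip permutation p = 0.0312 for each). With 1 list left out it was 3.11 to 6.73 (exact sign-flip permutation p from 0.188 to 0.438). The lists share the same genes, so these p-values speak of these regions in these samples only. Ranked by log10 p in place of fold, block peaks differed by 3.48 points (exact sign-flip permutation p = 0.281). Fewer lists or peaks make each rule easier or harder to meet by construction.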
